A study of Mus musculus with 2 samples.

Results

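Toll-like receptors (TLRs) and their partners were followed by name through the immune cells of B16-OVA tumors. The 10 genes, of 31053 in the deposited matrices, were the receptors *Tlr2*, *Tlr3*, *Tlr4*, *Tlr7*, *Tlr9* and *Tlr13*, the adaptor *Myd88*, and the partners *Cd14*, *Ly96* and *Ly86*. They were chosen by name, with no measured value in the rule, though earlier results of these data were known. Each was read in 9 gates of cells drawn by marker genes that include none of the 10. B16-OVA is a mouse melanoma line that carries ovalbumin, and the hosts were wild-type C57BL/6J mice. 1 group received PBS (control) and the other daily intraperitoneal creatine at 10.5 mg per animal, tumors were taken on day 14, 4 tumors were combined per group, and CD45.2+ tumor-infiltrating immune cells (TIIs) gave 1 droplet scRNA-seq library per group. The study's sources differ on the day of harvest and the number of animals combined, and the values given are those of the labels. The treatment field and title name the control group, although its protocol entry describes the creatine injection too.

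TLRs are pattern recognition receptors of innate immunity. Tlr2 and Tlr4 sit at the cell surface, where Tlr2 senses bacterial lipopeptides and Tlr4, bound to MD-2 (*Ly96*) and fed by Cd14, senses lipopolysaccharide. Tlr3, Tlr7, Tlr9 and Tlr13 sit in endosomes and sense nucleic acids, and all of the receptors studied except Tlr3 signal through the adaptor Myd88. MD-1 (*Ly86*) is the partner of the TLR-like surface protein Cd180 (RP105). In dendritic cells (DCs), TLR signals drive maturation, cytokine release and T cell priming.

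On GRCm38, the surface receptors lie at chr3:83836272-83841767 (*Tlr2*, minus strand) and chr4:66827584-66930284 (*Tlr4*, plus strand), and the partners at chr1:16688051-16709611 (*Ly96*, plus strand) and chr13:37345208-37419036 (*Ly86*, plus strand). The endosomal receptors lie at chr8:45395665-45411080 (*Tlr3*, minus strand), chrX:167304929-167330558 (*Tlr7*, minus strand), chr9:106222598-106226883 (*Tlr9*, plus strand) and chrX:106143204-106160493 (*Tlr13*, plus strand). *Myd88* lies at chr9:119335934-119341411 on the minus strand.

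After removal of cells with more than 25% mitochondrial unique molecular identifiers (UMIs), the control library held 7241 cells and 79319769 UMIs and the creatine library 6229 cells and 72091124 UMIs. The control and creatine cells numbered 64 and 35 in the cDC1 gate, 86 and 45 in the cDC2 gate, 35 and 11 in the Ccr7+ DC gate, 25 and 17 in the plasmacytoid DC (pDC) gate and 28 and 43 in the B cell gate. Classical monocytes numbered 414 and 663, nonclassical monocytes 54 and 108, macrophages 635 and 195, and neutrophils 44 and 19. Each gate held at least 6 of its markers in at least 25% of cells. The cDC2 gate was the least distinct, since *Clec4a4* was in 1.16% and 0% of its cells and 41 and 25 cells lay near its limit. The libraries shared 29 cell barcodes. *Xist*, the X-inactivation transcript, was between 154 and 1448 CPM in the 9 gates of both libraries and Y-linked transcripts were at or near 0, whereas the study's methods name adult male mice unless stated otherwise. *Tlr7* and *Tlr13* are X-linked.

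Levels are given as CPM, in which a gene's UMIs are scaled to the UMI total of its gate and library. The libraries read transcripts at their 3′ ends, so levels are compared between gates for a gene and not between genes. With 1 library per group, no test of treatment could be made. Intervals are exact 95% intervals that cover counting error only, and they do not hold the spread between mice. T cells and NK cells, which should lack most of these receptors, gave the background. A change in a gate's CPM cannot tell apart fewer cells with the transcript from less of it per cell, so shares of cells are given beside the larger differences.

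Among the surface receptors, *Tlr2* was highest in neutrophils, at 135 CPM in the control and 103 CPM in the creatine library. Classical monocytes followed at 87.8 and 87.2 CPM, nonclassical monocytes at 70.3 and 93.2 CPM and macrophages at 53.8 and 58.9 CPM. The neutrophil values rested on 17 and 6 UMIs, and their counting intervals (78.9 to 217 and 37.6 to 223 CPM) took in the monocyte levels. In DCs, *Tlr2* was at 34.6 and 47.3 CPM in cDC2 and at 13.9 and 19.1 CPM in cDC1. The ranges of cDC2 and cDC1 over the libraries did not overlap. In Ccr7+ DCs, pDCs and B cells no library held more than 5 *Tlr2* UMIs, and T cells gave 3.94 CPM in both libraries.

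*Tlr4* followed another order. Macrophages held 42.0 and 59.2 CPM, above classical monocytes at 20.3 and 18.3 CPM and nonclassical monocytes at 17.6 and 21.0 CPM. Neutrophils (31.9 and 85.4 CPM) rested on 4 and 5 UMIs and overlapped the macrophage range. *Tlr4* was 8.24 and 12.3 CPM in cDC2 and 4.62 and 3.81 CPM in cDC1, against 1.19 and 0.890 CPM in T cells and 8.80 and 6.41 CPM in NK cells. pDCs held no *Tlr4* UMI in either library, which allows up to 20.9 and 23.3 CPM.

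The Tlr4 partner *Ly96* was spread over the same myeloid gates. It was 53.8 and 53.6 CPM in macrophages, 59.8 and 36.1 CPM in nonclassical monocytes and 39.7 and 37.1 CPM in classical monocytes, and the first pair of ranges overlapped. Neutrophils held 15.9 and 68.3 CPM from 2 and 4 UMIs. Ccr7+ DCs held 28.1 and 27.5 CPM from 8 and 4 UMIs, whereas cDC1 (8.32 and 7.63 CPM) and cDC2 (7.42 and 5.25 CPM) were at the level of NK cells, 8.04 and 5.60 CPM. In the control macrophages 135 of the 233 cells with a *Tlr4* UMI also held a *Ly96* UMI, and in the creatine macrophages 59 of 92 did. Over all macrophages of the gate, *Ly96* was in 266 of 635 control and 87 of 195 creatine cells. Deeper cells hold more UMIs of both genes.

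*Cd14*, the co-receptor that passes lipopolysaccharide to the Tlr4 complex, was a transcript of neutrophils, monocytes and macrophages. Neutrophils held 717 and 51.3 CPM, classical monocytes 153 and 55.7 CPM, macrophages 72.5 and 43.9 CPM and nonclassical monocytes 31.7 and 18.6 CPM. Within each of these gates the control value was the higher of the pair. cDC2 held 13.2 and 14.0 CPM and cDC1 3.70 and 5.72 CPM, against 2.16 and 1.02 CPM in T cells. The remaining gates held at most 5 *Cd14* UMIs in a library.

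*Ly86*, which encodes MD-1, was broad. It was highest in macrophages (740 and 805 CPM) and pDCs (696 and 827 CPM), whose ranges overlapped. Classical monocytes (582 and 676 CPM), cDC2 (428 and 722 CPM), B cells (397 and 573 CPM) and cDC1 (385 and 521 CPM) came next, and each overlapped its neighbor in that order. Nonclassical monocytes (264 and 343 CPM) lay below cDC1 with no overlap, and Ccr7+ DCs held 190 and 309 CPM. Neutrophils were the exception, with 191 CPM from 24 UMIs in 4 control cells and no UMI in the creatine library. T cells held 16.2 and 10.8 CPM and NK cells 28.6 and 14.6 CPM.

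Of the endosomal receptors, *Tlr3*, the sensor of double-stranded RNA, was a cDC1 transcript. It was 177 CPM in control and 116 CPM in creatine cDC1, with no overlap with any other gate. Macrophages came next at 13.4 and 19.1 CPM, cDC2 held 8.24 and 5.25 CPM and classical monocytes 4.64 and 7.78 CPM. Ccr7+ DCs, pDCs and B cells held no *Tlr3* UMI in either library. With every cell thinned to 2000 UMIs, *Tlr3* was in 20.3% of control cDC1 (interval 11.3% to 32.2%) and 16.1% of creatine cDC1 (5.45% to 33.7%), against 0.280% and 0.0682% of T cells. Before thinning it was in 47 of 64 and 19 of 35 cDC1.

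*Tlr7*, a sensor of single-stranded RNA, had a pair of peaks. Nonclassical monocytes held 158 and 155 CPM and pDCs 164 and 94.7 CPM, and these ranges overlapped. Classical monocytes (54.8 and 61.9 CPM) and macrophages (63.4 and 51.8 CPM) were lower and overlapped each other. B cells held 14 UMIs in 8 creatine cells (72.2 CPM) and none in the control cells. There a count of 0 allows up to 63.6 CPM. Classical monocyte markers in the B cell gate summed to 86.2 CPM in the control and 1063 CPM in the creatine cells, and the 38 creatine B cells with at most 1 such marker held 6 *Tlr7* UMIs (43.8 CPM). Conventional DCs were low, with 1.85 and 5.72 CPM in cDC1 and 4.12 and 10.5 CPM in cDC2 against 2.21 and 1.27 CPM in T cells, and Ccr7+ DCs held no *Tlr7* UMI.

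*Tlr13*, a sensor of bacterial ribosomal RNA, shared the monocyte peak of *Tlr7* but not the pDC peak. It was 165 and 163 CPM in nonclassical monocytes, 115 and 114 CPM in classical monocytes and 114 and 93.6 CPM in macrophages. Nonclassical monocytes stood apart from classical monocytes, while classical monocytes and macrophages overlapped. Neutrophils held 71.7 and 120 CPM from 9 and 7 UMIs. cDC1 (27.7 and 28.6 CPM), cDC2 (22.3 and 24.5 CPM) and Ccr7+ DCs (21.1 and 20.6 CPM) were closely spaced. pDCs held no *Tlr13* UMI, which allows up to 20.9 and 23.3 CPM. Among nonclassical monocytes, 16 of the 25 control cells with a *Tlr7* UMI also held a *Tlr13* UMI (64.0%), and 43 of 65 creatine cells did (66.2%). Over all cells of the gate, *Tlr13* was in 29 of 54 (53.7%) and 70 of 108 (64.8%), and deeper cells hold more UMIs of both genes.

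*Tlr9*, the receptor for unmethylated CpG DNA, was the scarcest, with 85 UMIs in all control cells and 73 in all creatine cells. It was highest in pDCs, where 4 UMIs gave 22.6 CPM in the control and 1 UMI gave 6.31 CPM in the creatine library. Classical monocytes held 3.77 and 4.12 CPM and macrophages 2.24 and 3.83 CPM, and T cells 0.0675 and 0.102 CPM. The gates overlapped from pDCs down to nonclassical monocytes, so no order among them can be read at this depth.

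*Myd88* was in all gates. Neutrophils led at 231 and 256 CPM, just above classical monocytes at 151 and 229 CPM. The neutrophil values rested on 29 and 15 UMIs, and their intervals (155 to 332 and 143 to 423 CPM) took in the monocyte level of the creatine library. The following gates overlapped in turn, with 150 and 193 CPM in cDC2, 148 and 179 CPM in nonclassical monocytes, 83.2 and 154 CPM in cDC1, 93.9 and 95.4 CPM in macrophages, 50.9 and 94.7 CPM in pDCs and 38.7 and 55.0 CPM in Ccr7+ DCs. Control B cells held no *Myd88* UMI, which allows up to 63.6 CPM. Creatine B cells held 67.1 CPM, or 14.6 CPM in those with at most 1 classical monocyte marker. T cells held 30.7 and 34.9 CPM and NK cells 28.6 and 31.4 CPM, so for *Myd88* these cells are not a background.

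**Figure D1:**
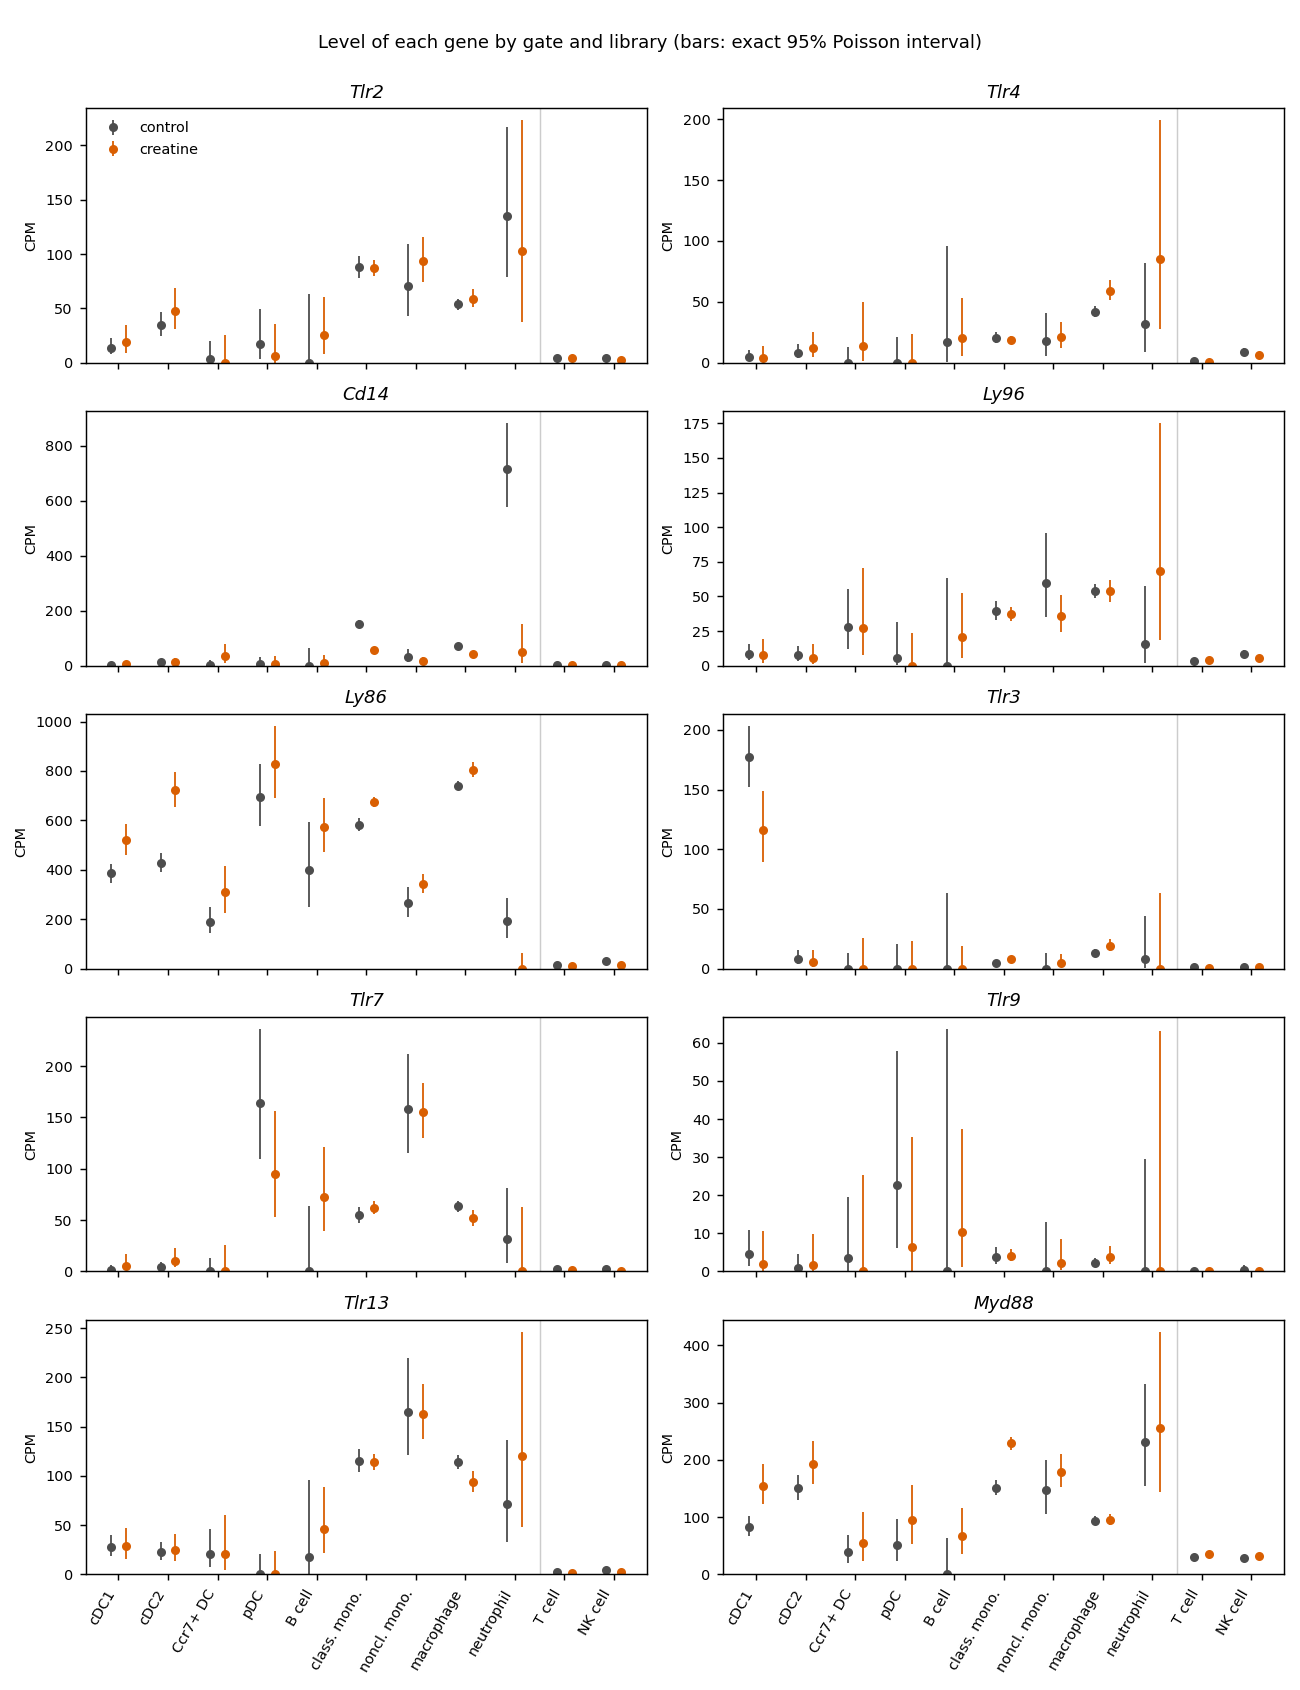
CPM of each of the 10 genes (1 panel each, vertical axis from 0) in the 9 gates and, right of the gray line, in T and NK cells, with the control library in gray and the creatine library in orange; bars are exact 95% Poisson intervals. Tlr3 stands out in cDC1, Tlr7 in pDCs and nonclassical monocytes, Tlr13 in nonclassical monocytes, and Ly86 is highest in macrophages and pDCs and lowest, of the 9 gates, in Ccr7+ DCs and neutrophils.

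The shares of cells with a UMI were also compared at equal depth, by a single random draw of UMIs from each cell. With cells thinned to 2000 UMIs, *Ly86* was in 69.3% and 70.9% of macrophages, in 52.4% and 79.1% of cDC2 and in 2.13% and 1.23% of T cells. *Tlr7* was in 32.0% and 23.5% of pDCs, in 13.5% and 23.6% of nonclassical monocytes and in 0.560% and 0.273% of T cells. *Tlr13* was in 30.8% and 29.2% of nonclassical monocytes and in 0.644% and 0.170% of T cells. 15 of the 44 control neutrophils held fewer than 2000 UMIs and were left out of these shares.

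**Figure D2:**
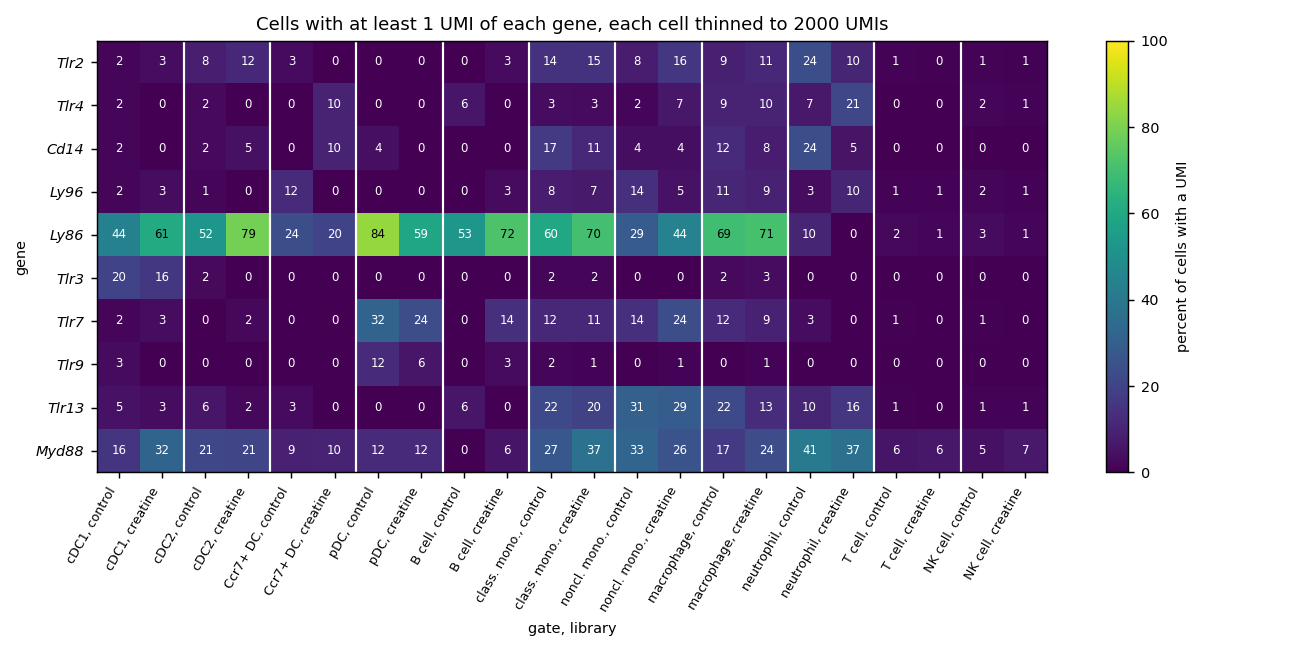
Percent of cells with at least 1 UMI of each gene (rows) in each gate and library (columns), after thinning each cell to 2000 UMIs; the color runs from 0 to 100 percent and each box prints its rounded percent. Ly86 fills most gates, Tlr3 is seen mainly in cDC1, and T and NK cells stay at or below 3.12 percent for every gene but Myd88.

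The second question was whether creatine treatment went with other levels of these genes. *Myd88* was higher in the creatine library in cDC1 and classical monocytes, *Ly86* was higher in cDC2, and *Cd14* was lower in classical monocytes, macrophages and neutrophils. *Tlr3* was lower in cDC1 and slightly higher in macrophages. *Tlr2* in classical monocytes and *Tlr13* and *Tlr7* in nonclassical monocytes differed by less than their counting error.

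Of the 90 pairs of gene and gate, 47 held at least 20 UMIs over both libraries, and a ratio past 1.5-fold was counted as higher or lower. There were 7 higher pairs, 8 lower pairs and 32 within 1.5-fold. In cDC1, of 5 genes measured, *Myd88* was higher and *Tlr3* lower, where 13.9% of all genes in the gate were higher and 14.8% lower by the same rule. In cDC2, of 5 genes, *Ly86* was higher and none lower, against 16.7% and 11.6% of all genes. In Ccr7+ DCs *Ly86*, the 1 gene measured, was higher, against 20.4% higher and 18.7% lower. In pDCs, of 3 genes, *Myd88* was higher and *Tlr7* lower, against 17.6% and 11.9%.

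In B cells *Ly86* was the 1 gene measured and was within 1.5-fold, against 26.7% of all genes higher and 13.9% lower. In classical monocytes all 10 genes were measured, *Myd88* and *Tlr3* were higher and *Cd14* lower, against 9.81% and 10.1%. In nonclassical monocytes, of 8 genes, none was higher and *Cd14* and *Ly96* were lower, against 13.8% and 12.5%. In macrophages, of 10 genes, *Tlr9* was higher and *Cd14* lower, against 4.93% and 7.87%. In neutrophils, of 4 genes, none was higher and *Cd14* and *Ly86* were lower, against 19.2% and 24.3%. No gate had more than 2 of the 10 genes past 1.5-fold in 1 direction, so the counts by themselves set the 10 genes apart from the other genes in no gate.

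**Figure D3:**
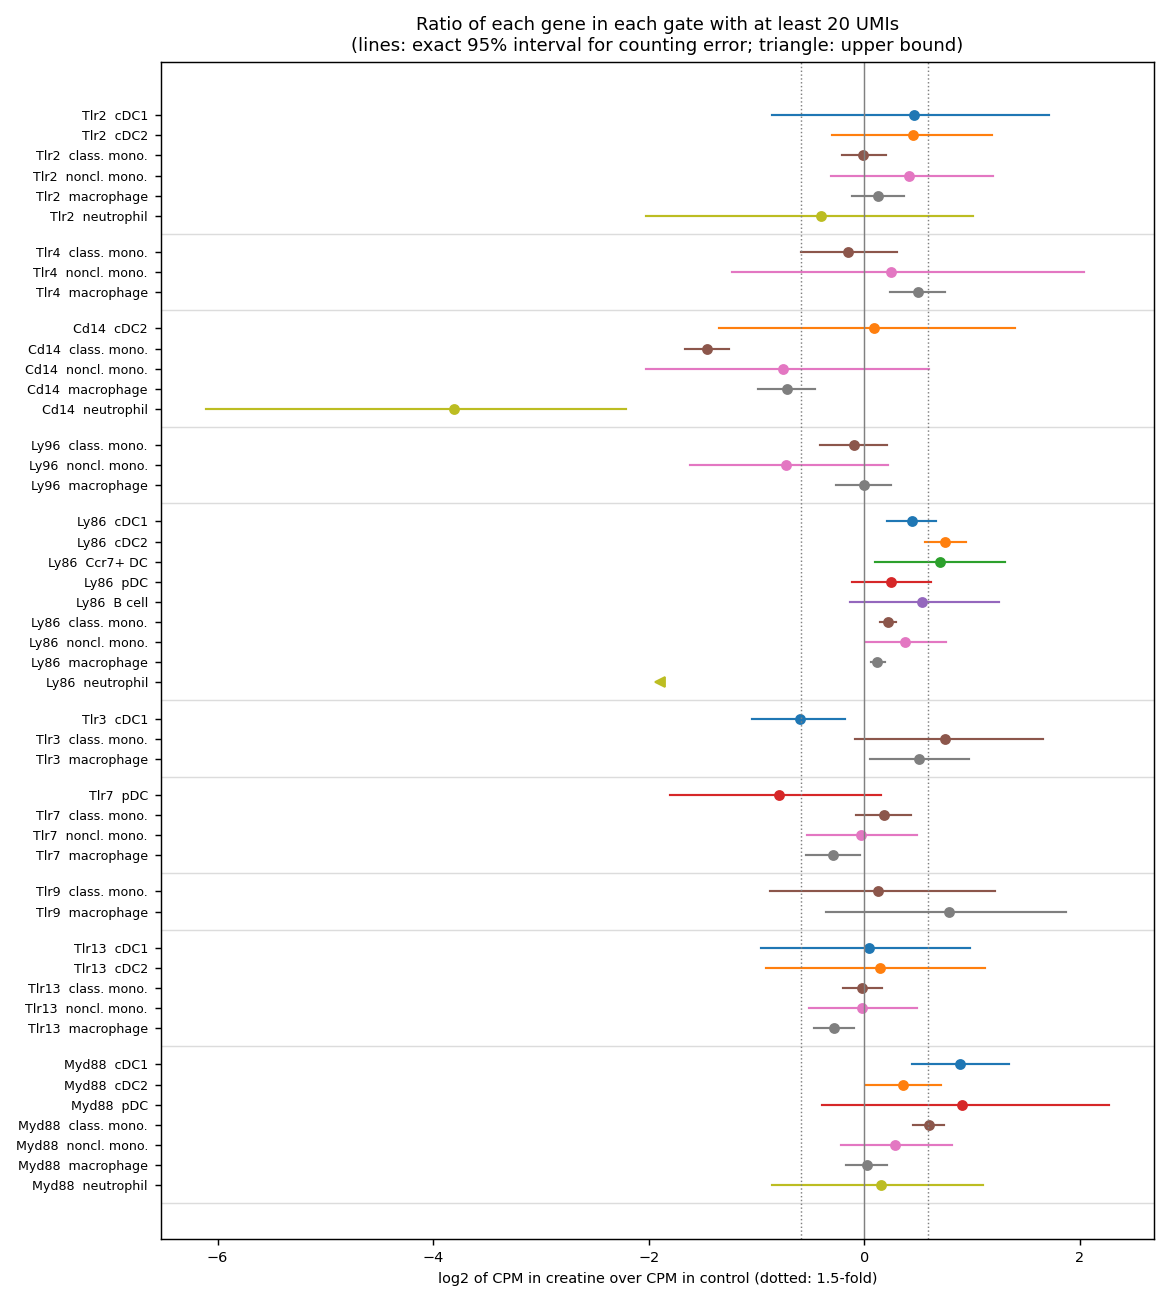
Log2 of CPM in the creatine library over CPM in the control library (horizontal axis), colored by gate. Shown are the 47 pairs of gene and gate with at least 20 UMIs. Lines are exact 95% intervals for counting error, and dotted lines mark 1.5-fold. The triangle marks the pair with no UMI in the creatine library, Ly86 in neutrophils. Cd14 lies left of 0 in classical monocytes, macrophages and neutrophils, and Myd88 lies right of the 1.5-fold line in cDC1.

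The difference in *Cd14* was the largest. In classical monocytes, 528 UMIs in the control (153 CPM) stood against 365 UMIs in the creatine library (55.7 CPM), a log2 ratio of -1.46 (interval -1.66 to -1.26). In macrophages *Cd14* was 72.5 against 43.9 CPM, a log2 ratio of -0.72 (-0.99 to -0.46). In both gates the control library was the higher, by more than counting error.

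The neutrophil value was 90 UMIs in 10 of 44 control cells (717 CPM) against 3 UMIs in 1 of 19 creatine cells (51.3 CPM), a log2 ratio of -3.81 (-6.11 to -2.21). A single control neutrophil held 38 of the 90 UMIs, and without it the control level was 423 CPM. The control neutrophil gate also held more macrophage and cDC1 marker UMIs. Macrophage markers summed to 406 against 85.4 CPM and cDC1 markers to 542 against 68.3 CPM. Classical monocyte markers were near level at 1841 against 1896 CPM, and NK cell markers were lower in the control at 55.8 against 85.4 CPM. In nonclassical monocytes the *Cd14* ratio was -0.76 (-2.03 to 0.60) on 9 and 16 UMIs, which is within counting error, and 7 of the 9 control UMIs were in 1 cell.

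In classical monocytes the share of cells with a *Cd14* UMI differed less than the level. At 2000 UMIs per cell it was 16.9% of control cells (13.4% to 21.0%) and 11.0% of creatine cells (8.67% to 13.6%), against 0.252% and 0.170% of T cells. The cells that held *Cd14* held 3.50 UMIs of it on average among control monocytes and 1.81 among creatine monocytes. At least 5 *Cd14* UMIs were in 22 of 414 control and 10 of 663 creatine monocytes, and the highest control cell held 53.

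The chemokine *Cxcl2*, which attracts neutrophils and was among the 3 genes whose levels were most like those of *Cd14*, was 327 CPM in control and 14.6 CPM in creatine classical monocytes. A single control cell, the one with 53 *Cd14* UMIs, held 674 of the 1127 *Cxcl2* UMIs, and without it the control level was 132 CPM. In the creatine monocytes 1 cell, with 1 *Cd14* UMI, held 39 of the 96 *Cxcl2* UMIs, and without it the creatine level was 8.71 CPM. Among control monocytes, 26 of the 151 cells with a *Cd14* UMI held *Cxcl2*, and 12 of the 263 cells without one did. Among creatine monocytes 7 of 202 and 8 of 461 did. The control monocytes with a *Cd14* UMI also held more macrophage marker UMIs, 1663 CPM summed over the 8 markers against 988 CPM in those without, while their neutrophil marker UMIs were 145 against 134 CPM.

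Over the whole classical monocyte gate the 8 macrophage markers summed to 1252 CPM in the control and 545 CPM in the creatine library. With classical monocytes limited to at most 1 macrophage marker (196 control and 447 creatine cells), the log2 ratio of *Cd14* was -1.87. *Cd14* was also lower in the creatine library in T cells, at 2.16 against 1.02 CPM. With the T and NK cell level subtracted, the ratios stayed past 1.5-fold in classical monocytes, macrophages and neutrophils.

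*Myd88* went the other way. In cDC1, 90 UMIs in the control (83.2 CPM) stood against 81 UMIs in fewer cells of the creatine library (154 CPM), a log2 ratio of 0.89 (0.44 to 1.34). At 2000 UMIs per cell it was in 15.6% of control cDC1 (7.76% to 26.9%) and 32.3% of creatine cDC1 (16.7% to 51.4%), and these intervals overlapped. In classical monocytes it was 151 against 229 CPM, a ratio of 0.60 (0.45 to 0.74), and the shares were 27.0% (22.7% to 31.7%) and 37.2% (33.5% to 41.1%), which did not overlap. This ratio lay just past 1.5-fold and stayed past it in 6 of 11 alternatives, down to 0.41 in monocytes with at most 1 macrophage marker.

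In cDC2 *Myd88* was 150 against 193 CPM, a ratio of 0.36 (0.01 to 0.71) that stayed within 1.5-fold, and the shares at 2000 UMIs were 21.4% and 20.9%. In pDCs the ratio of 0.90 rested on 9 and 15 UMIs and its interval, -0.39 to 2.27, included 0. In macrophages *Myd88* was 93.9 against 95.4 CPM (0.02, interval -0.17 to 0.21), and in neutrophils 231 against 256 CPM (0.15, interval -0.86 to 1.10). In macrophages the ratio was 0.40 with equal weight for each cell, and the shares at 2000 UMIs were 17.1% (14.1% to 20.5%) and 23.8% (17.7% to 30.9%), which overlapped. The difference between gates was not tested.

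The cDC1 gate of the creatine library also held more classical monocyte marker UMIs, 990 CPM summed over 8 markers against 416 CPM in the control, and the cDC2 gate 1201 against 768 CPM. With at most 1 classical monocyte marker per cell (42 and 18 cDC1, 44 and 17 cDC2), the log2 ratio of *Myd88* was 0.61 in cDC1 and that of *Ly86* was 0.86 in cDC2. No interval was computed for these ratios in the smaller sets of cells, so whether they pass counting error is not known. *Myd88* overlaps *Slc22a14* on the same strand, so reads from the shared stretch may not be separable.

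*Ly86* was higher in the creatine library in 8 of the 9 gates. In cDC2 it was 428 CPM (519 UMIs) against 722 CPM (412 UMIs), a log2 ratio of 0.75 (0.56 to 0.94), and the share of cells at 2000 UMIs was 52.4% (41.2% to 63.4%) against 79.1% (64.0% to 90.0%). At 1000 UMIs *Ly86* was in 34.9% and 42.2% of cDC2. In cDC1 it was 385 against 521 CPM (0.44, interval 0.21 to 0.66), in classical monocytes 582 against 676 CPM (0.22, 0.14 to 0.29) and in macrophages 740 against 805 CPM (0.12, 0.06 to 0.19). The intervals of cDC1 and cDC2, which cover counting error only, lay above that of macrophages, and the difference between gates was not tested. In cDC1 the ratio was 0.20 with equal weight for each cell. The cDC1 shares at 2000 UMIs, 43.8% (31.4% to 56.7%) and 61.3% (42.2% to 78.2%), overlapped.

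Nonclassical monocytes gave 264 against 343 CPM (0.38, interval 0.01 to 0.76), pDCs 696 against 827 CPM (0.25, -0.12 to 0.62) and B cells 397 against 573 CPM (0.53, -0.13 to 1.25). In pDCs the share at 2000 UMIs went the other way, 84.0% (63.9% to 95.5%) against 58.8% (32.9% to 81.6%). At 1000 UMIs it was 48.0% against 52.9%, so no direction is read there. The value of Ccr7+ DCs, 190 against 309 CPM, rested on 1 cell, which held 37 of the 45 creatine UMIs, and without the 5% of cells with the most UMIs the log2 ratio turned to -1.68. In neutrophils the 24 control UMIs were in 4 cells and the creatine library held none. With a small floor count put in place of the empty one, the log2 ratio was -1.90. Its exact interval for counting error reached up to -1.49. The control neutrophil gate held more macrophage and cDC1 marker UMIs, as given above. *Ly86* in T and NK cells was lower in the creatine library.

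*Cd180*, whose protein is held at the cell surface by MD-1, was read beside *Ly86* and was singled out after its values were seen. It was 81.3 against 174 CPM in cDC1 (1.09, interval 0.65 to 1.53), 71.7 against 158 CPM in cDC2 (1.14, 0.69 to 1.58) and 176 against 268 CPM in macrophages (0.61, 0.49 to 0.73). In pDCs it was 271 against 221 CPM (-0.30, -0.97 to 0.36), which is within counting error. *Ly86* and *Cd180* were thus both higher in the creatine library in cDC1, cDC2 and macrophages. *Irf7*, a transcription factor that Myd88 signaling activates, was singled out in the same way beside *Myd88*. It was 124 against 277 CPM in cDC1 (1.16, 0.81 to 1.51), 134 against 264 CPM in cDC2 (0.98, 0.65 to 1.31) and 268 against 314 CPM in macrophages (0.23, 0.12 to 0.33). The *Irf7* ratio was as large in nonclassical monocytes, at 1.34 (0.69 to 2.05), and that of *Cd180* there was 0.72 (0.12 to 1.36). *Myd88* there was within 1.5-fold, at 0.28 (-0.22 to 0.81). In classical monocytes, where *Myd88* was counted as higher, *Irf7* was 318 against 398 CPM (0.32, 0.22 to 0.43), within 1.5-fold. In B cells the *Irf7* ratio of 1.92 (0.27 to 4.26) rested on 3 control UMIs. It was 0.18 (-1.88 to 2.72) in B cells with at most 1 classical monocyte marker. In cDC1 with at most 1 classical monocyte marker the ratios were lower and their intervals included 0, at 0.60 (-0.04 to 1.23) for *Cd180* and 0.47 (-0.11 to 1.03) for *Irf7*, whereas in such cDC2 they were 1.35 (0.65 to 2.05) and 1.16 (0.63 to 1.68). *Unc93b1*, the chaperone that brings endosomal TLRs to their compartment, was also picked, outside the naming rule, from the pathway list given below. It was 272 against 366 CPM in cDC1 (0.43, 0.16 to 0.70) and 242 against 347 CPM in cDC2 (0.52, 0.25 to 0.78), within 1.5-fold in both. Its ratio was larger in nonclassical monocytes, at 0.80 (0.35 to 1.27). *Hsp90b1*, of the trafficking and folding genes of that list, was lower within 1.5-fold in cDC1 (-0.27, -0.52 to -0.03) and cDC2 (-0.25, -0.51 to 0.00).

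Shown here are the stretches before the RefSeq starts of *Myd88*, chosen as higher in creatine cDC1, and *Ly86*, chosen as higher in creatine cDC2. Each runs 5′ to 3′ on the strand of the gene, comes from RefSeq on GRCm38.p6 and stops where the gene's GENCODE exons begin. The first is chr9:119340042-119340268 on the minus strand and lies downstream of the outermost GENCODE start of *Myd88*, and the second is chr13:37345095-37345207 on the plus strand. Capitals mark a match to the interferon-stimulated response element written as GAAANNGAAA, searched on both strands.
Myd88: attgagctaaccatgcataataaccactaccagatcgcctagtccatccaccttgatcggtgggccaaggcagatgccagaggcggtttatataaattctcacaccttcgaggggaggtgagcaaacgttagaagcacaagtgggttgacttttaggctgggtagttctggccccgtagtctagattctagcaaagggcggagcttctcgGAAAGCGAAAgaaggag
Ly86: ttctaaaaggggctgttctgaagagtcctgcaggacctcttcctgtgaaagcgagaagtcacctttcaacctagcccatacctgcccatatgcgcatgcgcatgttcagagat
The match in *Myd88* lies 40 to 31 bases before the RefSeq start. In windows of 250 bases before the start, it was found in 2.98% of 32851 promoters and in 1 of the 6 genes studied that had an entry (*Ly86*, *Myd88*, *Tlr13*, *Tlr2*, *Tlr3* and *Tlr9*). A κB-type motif, GGGNNNNNCC, which overlapped no such match in these genes, was found in 45.8% of promoters and in *Tlr2* and *Tlr3*. These are matches of letters and no measure of binding.

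Among the endosomal receptors, *Tlr3* in cDC1 fell from 191 UMIs (177 CPM) to 61 UMIs (116 CPM), a log2 ratio of -0.60 (-1.04 to -0.18). The call was not stable. With cells that held any T or NK cell marker UMI left out (27 control and 21 creatine cDC1), the ratio was 0.06, and with equal weight for each cell it was -0.09. In macrophages *Tlr3* was 13.4 against 19.1 CPM (0.51, interval 0.05 to 0.97), and in classical monocytes 4.64 against 7.78 CPM (0.75, -0.09 to 1.66), which is within counting error. *Tlr3* overlaps *Gm45542* on the other strand.

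*Tlr7* in pDCs was 164 against 94.7 CPM on 29 and 15 UMIs, and its log2 ratio of -0.79 had an interval from -1.80 to 0.15. In nonclassical monocytes *Tlr7* was 158 against 155 CPM (-0.03, -0.53 to 0.49) and *Tlr13* 165 against 163 CPM (-0.02, -0.51 to 0.49). In macrophages both were lower by less than 1.5-fold, *Tlr7* with a ratio of -0.29 (-0.54 to -0.04) and *Tlr13* with -0.28 (-0.47 to -0.10). *Tlr13* in classical monocytes had the narrowest interval of the endosomal receptors, at -0.02 (-0.20 to 0.16). *Tlr9* in macrophages passed 1.5-fold on 19 and 13 UMIs, and its interval, -0.36 to 1.87, included 0.

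*Tlr2*, *Tlr4* and *Ly96* were measured mainly in monocytes and macrophages. *Tlr2* was 87.8 against 87.2 CPM in classical monocytes (-0.01, interval -0.21 to 0.20) and 53.8 against 58.9 CPM in macrophages (0.13, -0.12 to 0.37). *Tlr4* was 42.0 against 59.2 CPM in macrophages (0.50, 0.24 to 0.75), within 1.5-fold, and 20.3 against 18.3 CPM in classical monocytes (-0.15, -0.59 to 0.30). *Ly96* was level in macrophages (0.00 with an interval from -0.26 to 0.25) and classical monocytes (-0.10, -0.41 to 0.21). Its ratio in nonclassical monocytes, -0.73, had an interval from -1.62 to 0.22. The *Tlr4* ratio in macrophages dropped to 0.15 with equal weight for each cell, and the shares at 2000 UMIs were 9.46% and 9.88%.

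**Figure D4:**
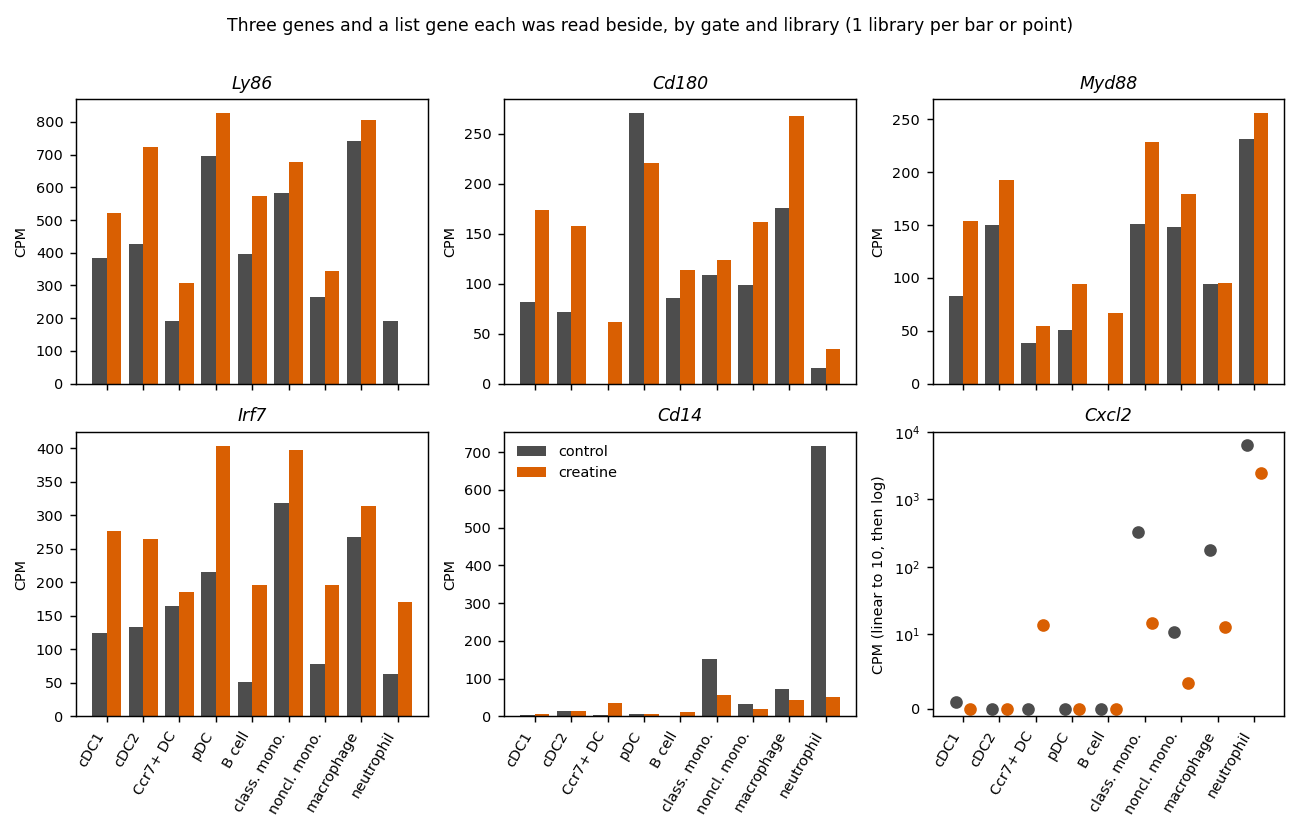
CPM in the 9 gates for Ly86, Cd180, Myd88, Irf7, Cd14 and Cxcl2, control in gray and creatine in orange, 1 library per bar or point; axes start at 0 except that of Cxcl2, which is linear to 10 and then logarithmic. Ly86 and Cd180 are higher with creatine in cDC1 and cDC2, and Cd14 and Cxcl2 are lower in classical monocytes and macrophages.

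The rest of the pathway was read from a list of 57 genes, chosen with earlier results of these data known. The study had already reported higher *Cxcl10* and *Cd40* in cDCs of creatine-treated mice from these libraries. The counts of the list are therefore descriptions and no independent support. In cDC1, 37 of them were measured, 11 were higher and 2 lower, against 13.9% and 14.8% of all genes. In cDC2, 42 were measured, 13 were higher and 1 lower, against 16.7% and 11.6%. The targets carried part of this. *Cxcl10*, a chemokine for effector T cells, was 9.24 against 257 CPM in cDC1 and 120 against 739 CPM in cDC2, and *Cd40*, a co-stimulatory receptor, was 14.8 against 57.2 CPM and 50.3 against 152 CPM. *Ccl4*, another chemokine, was 12.0 against 42.0 CPM and 30.5 against 124 CPM. Both cDC gates also held more classical monocyte marker UMIs in the creatine library, as given above. In cells with at most 1 such marker, *Cxcl10* was 9.52 against 79.1 CPM in cDC1 (3.05, interval 1.66 to 4.68) and 133 against 1086 CPM in cDC2 (3.03, 2.64 to 3.43), while *Ccl4* in cDC1 rested on 9 and 7 UMIs and its interval, -0.55 to 2.70, included 0. *Tlr11*, a receptor for profilin and a cDC1 transcript here, was lower in cDC1 at 61.0 against 26.7 CPM, as was *Ap3b1*, an endosomal adaptor subunit, at 78.6 against 43.9 CPM.

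The lean to higher values was not shared by all gates. In Ccr7+ DCs 2 of 28 were higher (20.4% of all genes), *Cd40* (165 against 364 CPM) and *Il12b* (292 against 454 CPM), and 10 were lower (18.7% of all genes), *Otulin*, *Il1b* and *Ikbkb* among them. The 11 creatine cells of this gate also held more macrophage marker UMIs, 1120 CPM against 172 CPM in the control. Their classical monocyte markers summed to 481 CPM against 38.7 CPM. In pDCs 5 of 17 were higher and 2 lower, against 17.6% and 11.9% of all genes, and the transcription factors *Irf7* (215 against 404 CPM) and *Irf5* (56.5 against 139 CPM) were among the former. In B cells 6 of 16 were higher and 1 lower, against 26.7% and 13.9% of all genes, and in the 28 and 38 B cells with at most 1 classical monocyte marker *Irf7*, 1 of the 6, was 51.7 against 58.4 CPM. The median log2 ratio of the list was 0.34 in cDC1, 0.29 in cDC2, 0.36 in B cells and 0.26 in nonclassical monocytes, where that of all genes was 0.02, 0.08, 0.12 and -0.01. It was -0.14 in Ccr7+ DCs, where that of all genes was 0.05.

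In classical monocytes 7 of 52 genes were higher and 3 lower, near the 9.81% and 10.1% of all genes. *Cxcl10* was 589 against 1397 CPM and *Cd40* 51.9 against 114 CPM, while *Cxcl2*, the prostaglandin synthase *Ptgs2* (69.5 against 17.1 CPM) and *Cd80* (14.8 against 9.61 CPM) were lower. *Tlr11*, lower in cDC1, was higher in these monocytes at 1.74 against 4.57 CPM on 6 and 30 UMIs (1.40, interval 0.11 to 2.95). In macrophages, where 4.93% of all genes were higher and 7.87% lower, 5 of 53 were higher, with *Cxcl10* (244 against 953 CPM), *Tlr12* (9.65 against 25.3 CPM) and *Tnf* (36.5 against 71.6 CPM), and 3 were lower, with *Cxcl2* (176 against 12.7 CPM) and *Ccl3* (117 against 69.5 CPM). A single control macrophage, which held no *Cd14* UMI, held 443 of the 1498 *Cxcl2* UMIs, and without it the control level was 124 CPM. In nonclassical monocytes 13 of 41 were higher and 2 lower, against 13.8% and 12.5% of all genes, and all 7 targets measured were higher. The control counts of these targets were low, from 3 UMIs (*Cxcl10*) to 29 UMIs (*Il1b*), and the interval of *Cd86*, -0.18 to 1.61, included 0. In neutrophils none of 13 was higher and 4 were lower, against 19.2% and 24.3% of all genes, among them *Cxcl2* (6511 against 2477 CPM) and *Ccl4* (1108 against 427 CPM). A single cell held 310 of the 817 control and 112 of the 145 creatine *Cxcl2* UMIs, and without these cells the levels were 4121 and 595 CPM. The control cell held 38 *Cd14* UMIs and the creatine cell none.

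The gene whose levels followed each of the 10 most closely was found by the Pearson correlation of log2(CPM + 1) over the 18 values of 9 gates in 2 libraries, among 9689 genes. The points share libraries and depth, so the coefficients are descriptions. *Ly86* was closest to *Mydgf* (0.984), *Tomm5* (0.982) and *Uqcrc1* (0.979). It was 0 in creatine neutrophils, a gate of 58530 UMIs, and 190 CPM or more elsewhere, so that value weighs heavily in these coefficients. The correlation without it was not computed. *Tlr13* was closest to *Metrnl* (0.968) and *Myd88* to *Gpr35* (0.961). *Tlr4* was closest to *Cd84* (0.945), *Tlr2* to *Emilin2* (0.943), *Tlr7* to *Cib2* (0.929) and *Ly96* to *Gm21188* (0.927), a predicted gene whose reads may be shared with a copy. *Tlr9* (*Usp20*, 0.919) and *Tlr3* (*Rars*, 0.900) rested on few gates with UMIs, and *Cd14* had the lowest leading value, 0.865 with *Ccr1*, ahead of *Cxcl2* at 0.858. Among the 10 genes themselves, *Tlr4* and *Tlr13* were the closest at 0.82, followed by *Tlr2* and *Myd88* at 0.77. *Tlr4* and *Tlr13* both held no UMI in pDCs, and *Tlr2* and *Myd88* both held none in control B cells. Such shared empty values also raise a coefficient.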

How the data were processed

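The authors deposited raw UMI counts per gene and cell (unit: counts, no normalization) for each library, made with Cell Ranger 3.0.2 on mm10 per the submitters' processing notes. The libraries were described as 3′ kit v2. Cells entered with 300 or more UMIs, 100 or more genes detected and a mitochondrial share of no more than 25% (7649 to 7241 control cells, 6503 to 6229 creatine cells; median 7688 and 8475 UMIs). A cell entered the gate whose markers it held in the largest share, with at least 3 of them, a lead of at least 0.1 over each other class and at most 1 marker each of T, NK, gamma-delta T and melanoma cells. 1271 control and 775 creatine cells entered no gate. No doublet caller was run. The lead and the marker limit keep out part of the cells of mixed markers, and the gates still held some. The gates used 97 markers, and the lead was set from marker counts after these had been seen. Cells near a limit have a lead between 0.05 and 0.15.

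UMIs were summed per gate and library, and CPM, ratios (exact conditional intervals) and shares (Clopper-Pearson, cells thinned to 2000 UMIs) were computed in Python 3.11.15 with scipy 1.17.1. Ratios past 1.5-fold with at least 20 UMIs were counted, and where a library held 0 UMIs the ratio was taken at a floor of 3 UMIs. Each group is 1 library, so there is no test. The calculations were tested on simulated data. The named genes are the 10, in each gate the 3 list genes higher and the 3 lower with the largest ratio whose interval leaves out no change, and for each of the 10 the 3 genes of highest correlation. A few list genes, such as *Cd180* and *Unc93b1*, were named outside this rule, and not every gene under it is given. The genes and lists were chosen with earlier results of these data known. Gene positions are from GENCODE M21 and promoters from RefSeq. Alternatives were other gate limits, left-out cells, TMM scaling (edgeR 4.0.16), other totals, equal weight per cell, background subtraction and other thresholds.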

Additional observations from a re-analysis of the deposited data

Results flagged for a closer look

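For *Tlr3* the log2 ratio of creatine over control was -0.60 in cDC1 and 0.51 in macrophages, with intervals on opposite sides of 0. The difference between the gates was not tested, since each gate has 1 library per group, and the cDC1 value was 0.06 without cells that held a T or NK cell marker UMI.

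For *Ly86* the log2 ratio was 0.75 in cDC2. Neutrophils, with 24 UMIs in 4 control cells and none in the creatine library, had a ratio of -1.90 at the floor count. The exact interval of the neutrophil ratio reached up to -1.49. The difference between these gates was not tested either. The control neutrophil gate also held more macrophage marker UMIs, 406 against 85.4 CPM.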

How the results depend on the processing

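The counts of 7 higher and 8 lower pairs stayed within 1.5 times under most alternatives. The higher count was 11 with at least 4 own markers, 4 with a lead of 0.25 and 0 with a fold of 2. The lower count was 4 without cells holding a T or NK cell marker UMI, 4 with at least 50 UMIs and 3 with a fold of 2. The alternatives with a lead of 0.05 or 0.25 and those that limit macrophage or monocyte markers, in B cells and for list genes too, were chosen after seeing the data. Ratios within 1.5-fold that changed sign, such as *Tlr2* in cDC2 (0.45, or -0.43 with a lead of 0.25), were judged by the interval alone. Of 489 single ratios, 459 stayed within the counting interval, 23 moved out of it and 7 that were past 1.5-fold turned sign. The latter were *Tlr3* in cDC1 (0.06) and *Tlr7* in pDCs (0.07) without T or NK cell marker UMIs, *Cd14* in nonclassical monocytes with at least 4 own markers (1.40), and *Ly86* in Ccr7+ DCs without the 5% of cells with the most UMIs (-1.68), with equal weight (-0.47), with a lead of 0.25 (-1.35) and with at most 1 classical monocyte marker (-1.47). The cause was not tested. *Cd14* ranged from -1.87 to -1.29 in classical monocytes and from -0.83 to -0.63 in macrophages, *Myd88* in cDC1 from 0.61 to 1.27 and in classical monocytes from 0.41 to 0.69, and *Ly86* in cDC2 from 0.51 to 1.01. The gate with the highest mean level of the libraries was the same in all 10 alternatives for every gene but *Ly86*, which was highest in pDCs in 3. The alternatives draw on the same cells, so a gate on few UMIs is no firmer for this. For *Tlr4* that gate was neutrophils, on 4 and 5 UMIs, and for *Tlr9* pDCs, on 4 and 1 UMIs. For *Cd14* it was neutrophils, although in the creatine library classical monocytes were higher (55.7 against 51.3 CPM). No paired analysis was possible because each group is 1 library. Gates of under 50 cells in both libraries limit what can be read of Ccr7+ DCs, pDCs, B cells and neutrophils, and the creatine cDC gates held under 50 too.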
